A study of Mus musculus with 6 samples.

Results

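Interferon-stimulated genes are the genes that cells switch on after an interferon binds its receptor. A list of 38 of them was chosen by gene symbol, with earlier results of these data known. Of the 38, 36 had a row among the 17854 genes of the deposited table. *Mx1* and *Mx2* had no row and were not analysed here. The study compared 2 groups of male C57BL/6 mice, with 3 libraries in each. The MSC-derived group holds Tomato+ cells sorted from knee cartilage of mice with surgically induced osteoarthritis that had received *Prrx1*-lineage mesenchymal stromal cells (MSCs) of inguinal white adipose tissue. The endogenous group holds Tomato+ articular cells of *Prrx1-Cre; R26 tdTomato* mice of the same sex and age, with no surgery or injection described for them. In both groups the red label marks descendants of cells in which Cre, driven by the *Prrx1* gene of limb mesenchyme, had been active; in the MSC-derived group only the injected cells carry the transgenes. Injury, injection and cell origin differ together between the groups and cannot be told apart.

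Total expected counts, the RSEM estimate of reads per gene, lay between 22060628 and 24881796 per library, so that 3 counts correspond to 0.121 to 0.136 CPM, the count scaled to a library total of 1000000. Endogenous replicate 1 stood apart. The chi-square statistic per gene was 56.6 and 53.3 between it and endogenous replicates 2 and 3, but 5.3 between those 2 and 3.84 to 4.24 among the MSC-derived libraries. The labels call all cells chondrocytes. All 9 genes of a chondrocyte list were lower in the MSC-derived libraries, by unequal amounts. *Col2a1* had 11147, 10604 and 10718 counts against 791142, 806693 and 837609 (log2 fold change -6.30). *Prg4* fell least of the list, with 134904, 133929 and 121811 counts against 188355, 160580 and 179281 (log2 fold change -0.51). All 5 osteoblast genes, at 74832 to 81444 CPM in sum in the endogenous libraries and 1659 to 1714 CPM in the MSC-derived ones, and all 7 common mesenchymal genes were lower as well. All 6 erythroid genes, all 13 genes of a macrophage list, all 9 of a neutrophil list and all 7 of a common leukocyte list were higher there. So were 3 of 4 B cell genes, 4 of 5 T and NK cell genes and 3 of 4 endothelial genes, and the others of these lists did not pass. Of all 14289 genes tested, 31.3% were higher and 30.3% lower (adjusted p at most 0.05). The summed level of the macrophage list was 20547 to 21011 CPM in the MSC-derived libraries and 356 to 481 CPM in the endogenous ones. That of the neutrophil list was 41733 to 43815 CPM and 1900 to 2744 CPM, in the same order. No macrophage gene was at 0 in every endogenous library. The median log2 fold change was 8.50 for the macrophage list and 4.13 for the leukocyte list. Leukocytes express interferon-stimulated genes at rest, and the part of these cell types in the values that follow was not tested. In bulk RNA, fewer cells of a type and less RNA per cell cannot be told apart.

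Type I interferons signal through IFNAR1 and IFNAR2 and the kinases JAK1 and TYK2 to the complex ISGF3, which holds STAT2 and IRF9 and binds the interferon-stimulated response element (ISRE) in the promoters of its target genes. Interferon gamma signals through IFNGR1 and IFNGR2 and the kinases JAK1 and JAK2, and its target genes often hold another element, GAS. Many of the proteins made in response detect or degrade foreign nucleic acids, block virus entry or release, or feed back on the pathway. In cartilage and synovium the response is best known from inflamed joints.

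Promoter stretches are shown for some of the genes with an ISRE core before the start site, picked by hand. *Oas3* and *Rsad2*, for example, held a core there and are not shown. The stretches shown include genes that did and did not differ between the groups. They come from RefSeq's annotation of GRCm38.p6, whose promoter table held 28 of the 36 genes, with 250 bases before and 50 after each start. The core searched was GAAA, then 2 bases of any kind, then GAAA again (on the other strand TTTC, 2 bases and TTTC), and matches may overlap each other and the GAS core. It stood in at least 1 promoter of 17 of the 28 genes (18 of 32 promoters, 56.2%), compared with 3.44% of all 32851 promoters in the table. The GAS core TTCNNNGAA, which reads the same on both strands, stood in 8 of the 32 promoters, or 25%, and in 8.3% of all promoters. In the following stretches of 60 bases, written 5′ to 3′ along the gene, capitals mark the ISRE core. The first 7 genes were higher in the MSC-derived cells and the last 3 did not pass the test:
Isg15 (chr4:156200856-156200915, - strand): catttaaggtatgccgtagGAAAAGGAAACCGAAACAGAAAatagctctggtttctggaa
Oas1a (chr5:120907526-120907585, - strand): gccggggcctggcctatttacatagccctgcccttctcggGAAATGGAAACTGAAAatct
Ifit3 (chr19:34583365-34583424, + strand): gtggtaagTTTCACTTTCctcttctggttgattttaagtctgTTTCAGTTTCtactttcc
Bst2 (chr8:71537565-71537624, - strand): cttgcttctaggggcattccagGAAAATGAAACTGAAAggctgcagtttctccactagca
Trim30a (chr7:104465195-104465254, - strand): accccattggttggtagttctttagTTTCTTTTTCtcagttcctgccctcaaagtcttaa
Irgm1 (chr11:48871421-48871480, - strand): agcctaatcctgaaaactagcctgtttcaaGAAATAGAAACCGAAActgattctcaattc
Igtp (chr11:58199496-58199555, + strand): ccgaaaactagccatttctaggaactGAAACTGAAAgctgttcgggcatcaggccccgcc
Ifit1 (chr19:34640769-34640828, + strand): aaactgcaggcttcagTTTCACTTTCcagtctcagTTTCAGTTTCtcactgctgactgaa
Gbp2 (chr3:142620579-142620638, + strand): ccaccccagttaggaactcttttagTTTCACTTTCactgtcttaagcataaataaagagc
Gbp3 (chr3:142559977-142560036, + strand): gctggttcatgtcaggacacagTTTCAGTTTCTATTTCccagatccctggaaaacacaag
*Isg15* carried 3 overlapping cores and *Oas1a*, *Bst2*, *Irgm1* and *Gbp3* 2 overlapping cores each, whereas the 2 cores of *Ifit3* and of *Ifit1* were separate. Among genes that were higher, 13 of 23 with a promoter in the table held the core, and among those that did not pass the test 4 of 5 held it. A match of letters is a description of the promoter and was not tested for binding.

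All 36 genes passed the expression filter and were tested with edgeR's quasi-likelihood test. In the MSC-derived cells 27 were higher and 1 was lower (adjusted p at most 0.05 over all genes), and 8 did not pass. The background was high, since 61.6% of the 14289 genes tested were called, split into 31.3% higher and 30.3% lower. Among the 36 genes the share called higher was 75%. Their median log2 fold change, MSC-derived minus endogenous, was 1.49, beside 0.05 over all genes tested. Their summed level was 1829 to 1843 CPM in the MSC-derived and 935 to 971 CPM in the endogenous libraries. An increase of at least 1 on the log2 scale was found for 23 of the 36 genes and for 19.3% of all genes tested. The groups did not overlap in CPM for 31 of the 36 genes, 30 of them higher and 1 lower in the MSC-derived cells; over all genes tested, 72.4% did not overlap, with 38.2% higher and 34.1% lower. Only *Oas2*, with 3, 8 and 7 endogenous counts, had a log2 fold change above the median of the common leukocyte list. That list holds genes chosen as leukocyte markers, so its median does not measure the part of leukocytes in these genes, which was not tested. Called members ranged from *Oas2* at 6.12 to *Iigp1* at -0.84, as the plots of counts by library and of fold changes show.

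**Figure D1:**
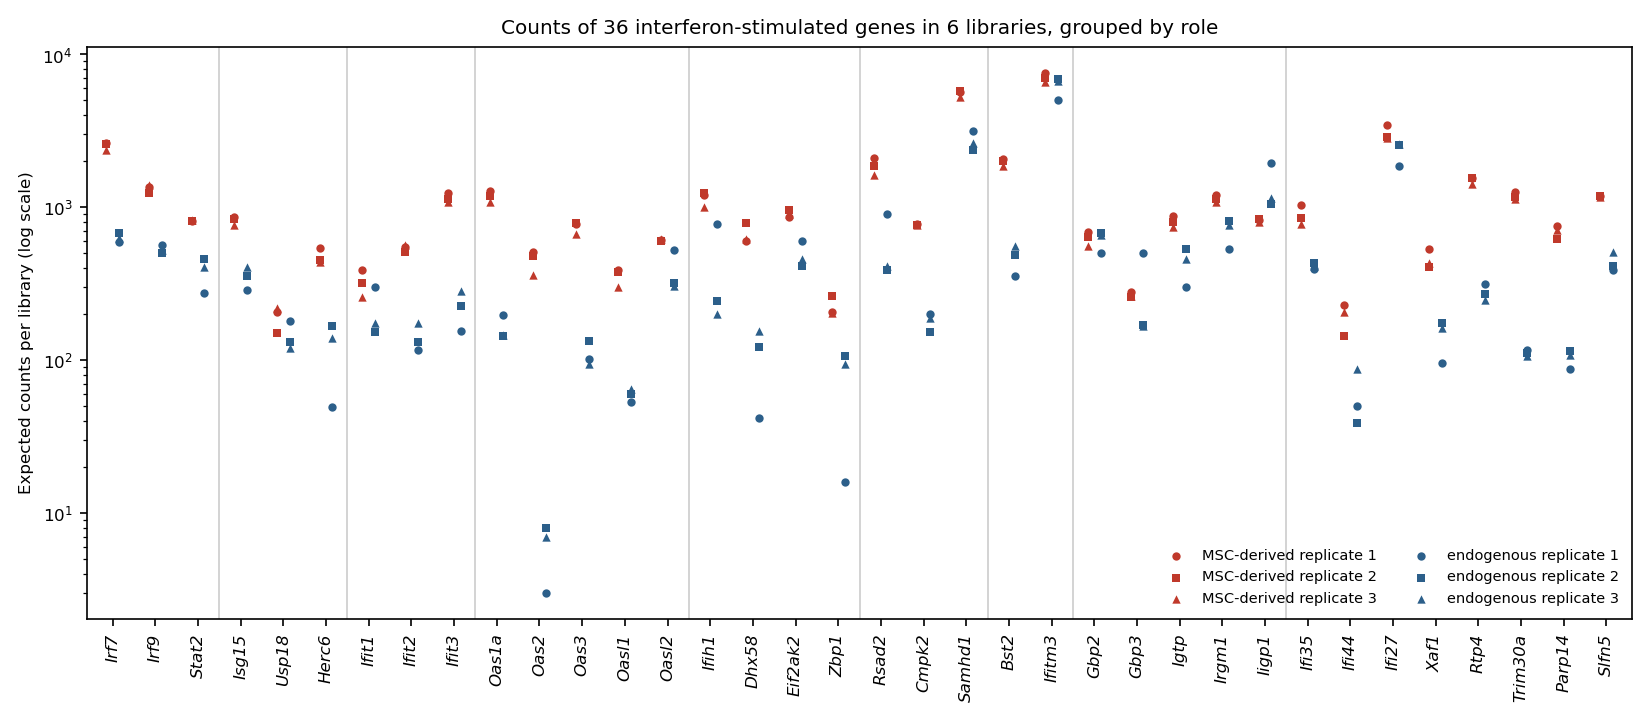
Expected counts per library (vertical axis, log scale) of the 36 interferon-stimulated genes, grouped by role from left to right: signalling and transcription, ISG15 conjugation, IFIT, OAS, RNA sensors and kinases, nucleotide enzymes, membrane restriction, interferon-gamma GTPases and others. Each point is 1 library, red for the 3 MSC-derived and blue for the 3 endogenous libraries; the red points lie above all blue points for most genes, with *Oas2* furthest apart and *Usp18*, *Ifit1*, *Ifitm3*, *Gbp2* and *Gbp3* overlapping.

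**Figure D2:**
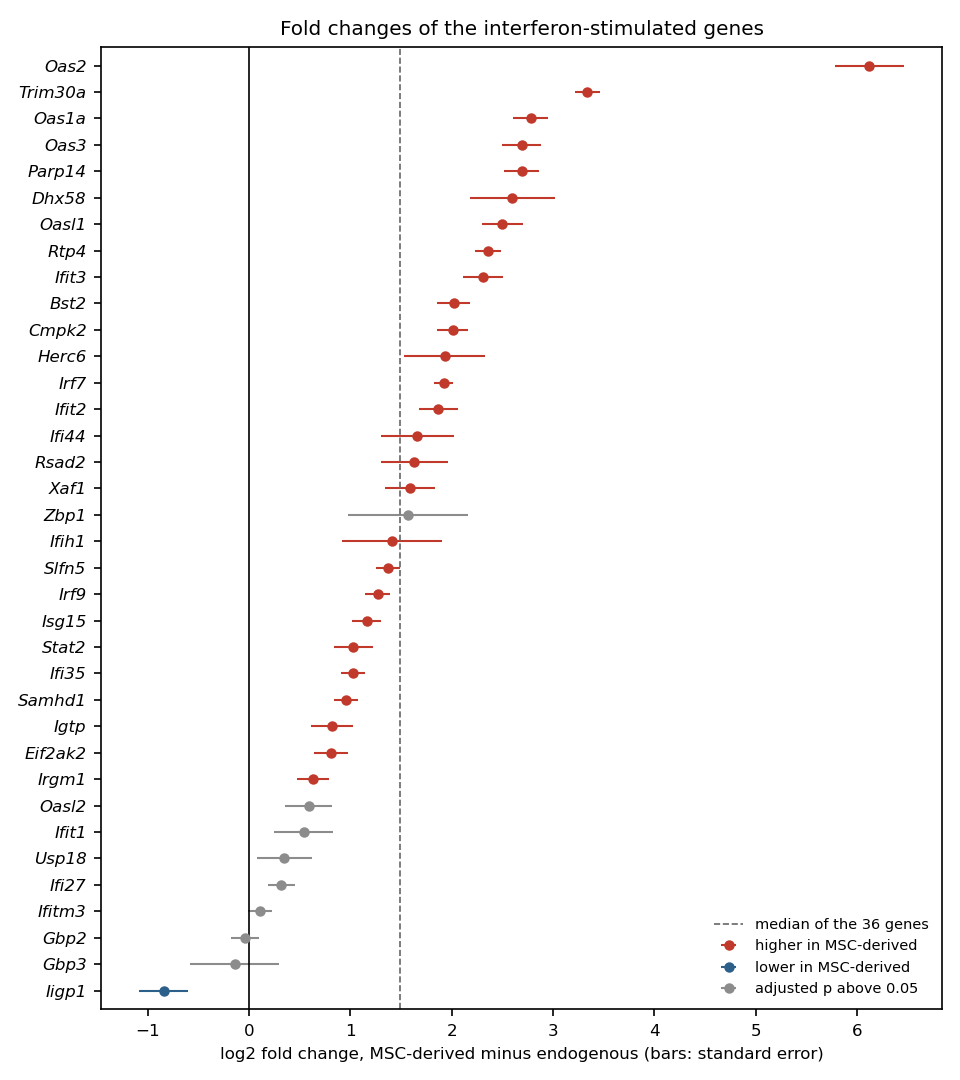
Log2 fold change of each gene, MSC-derived minus endogenous (horizontal axis), with bars of 1 standard error from edgeR, sorted from high to low. Red points were called higher (27 genes), the blue point lower (*Iigp1*) and grey points did not pass (8 genes); the dashed line marks the median, 1.49.

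The 3 transcription factors of the list were all higher. Of all genes tested, 31.3% were called higher and 38.2% were higher without overlap. *Irf7*, which drives the amplifying wave of interferon production, had 2630, 2596 and 2359 counts in the MSC-derived libraries and 595, 676 and 634 in the endogenous libraries (log2 fold change 1.92, SE 0.09, adjusted p = 1.60e-06; SE is the standard error of the log2 fold change). For the genes that follow, counts of the MSC-derived replicates 1 to 3 are set against those of the endogenous replicates 1 to 3. *Irf9*, the DNA-binding subunit of ISGF3, had 1366, 1247 and 1404 counts against 564, 502 and 522 (log2 fold change 1.27, SE 0.12, adjusted p = 5.50e-05). *Stat2*, its partner in the complex, had 810, 811 and 822 counts against 275, 457 and 409 (log2 fold change 1.03, SE 0.19, adjusted p = 0.00267). The groups did not overlap for any of them, and the endogenous values of *Irf7* and *Irf9* were closer to each other than those of *Stat2*, which was lowest in endogenous replicate 1.

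ISG15 is a small ubiquitin-like protein that is attached to other proteins, HERC6 is the main ligase that attaches it in mice, and USP18 removes it and also restrains the type I interferon receptor. *Isg15* had 860, 836 and 768 counts in the MSC-derived libraries and 289, 355 and 405 in the endogenous libraries (log2 fold change 1.16, SE 0.14, adjusted p = 2.47e-04). *Herc6* had 542, 452 and 438 counts against 49, 167 and 140 (log2 fold change 1.93, SE 0.40, adjusted p = 0.0042). Both were higher in every MSC-derived library than in any endogenous one, and *Herc6* was lowest in endogenous replicate 1. *Usp18* had 206, 151 and 220 counts against 179, 131 and 120, an overlap of the groups, and its test was not passed (log2 fold change 0.35, SE 0.27, adjusted p = 0.295). Without endogenous replicate 1 it passed, and its log2 fold change there was 0.50 (adjusted p = 0.0364).

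The IFIT family includes IFIT1, which binds viral RNA that lacks the cap modifications of the host. *Ifit2* had 546, 507 and 566 counts in the MSC-derived libraries and 117, 132 and 174 in the endogenous libraries (log2 fold change 1.87, SE 0.19, adjusted p = 8.31e-05), and *Ifit3*, its neighbour on chromosome 19, had 1245, 1132 and 1079 counts against 156, 227 and 282 (log2 fold change 2.31, SE 0.20, adjusted p = 3.94e-05). Neither overlapped between the groups. *Ifit1* had 387, 320 and 259 counts against 300, 152 and 176, with endogenous replicate 1 within the MSC-derived range, and did not pass (log2 fold change 0.54, SE 0.29, adjusted p = 0.146). Without that library its log2 fold change was 0.85 (adjusted p = 1.06e-04). *Ifit3* has a near-identical copy, *Ifit3b*, between which RSEM may divide reads; *Ifit3b* had 174, 246 and 209 counts against 89, 75 and 43 (log2 fold change 1.53, SE 0.35, adjusted p = 0.00653).

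The oligoadenylate synthetases (OAS) make the short oligoadenylates that activate RNase L. Grouped with the OAS-like genes *Oasl1* and *Oasl2*, their genes had the highest median log2 fold change of the role groups, 2.69. *Oas2* had 512, 480 and 359 counts in the MSC-derived libraries and 3, 8 and 7 in the endogenous libraries (log2 fold change 6.12, SE 0.34, adjusted p = 3.42e-06), so the endogenous libraries were close to the floor of 3 counts and the size of the change rests on few reads. *Oas3*, its neighbour on chromosome 5, had 783, 793 and 669 counts against 101, 134 and 94 (log2 fold change 2.69, SE 0.19, adjusted p = 1.18e-05). *Oas1a* had 1272, 1178 and 1086 counts against 198, 143 and 146 (log2 fold change 2.78, SE 0.17, adjusted p = 5.21e-06). Its close copy *Oas1g* had 290, 203 and 179 counts against 2, 24 and 9 (log2 fold change 4.16, SE 0.69, adjusted p = 0.00142), and reads may be divided between both. *Oasl1*, which limits translation of *Irf7*, had 387, 376 and 300 counts against 53, 60 and 65 (log2 fold change 2.50, SE 0.20, adjusted p = 2.20e-05). All 5 genes of the family were higher without overlap between the groups, as were 38.2% of all genes tested. *Oasl2*, however, had 615, 604 and 618 counts against 527, 322 and 306 and did not pass (log2 fold change 0.59, SE 0.23, adjusted p = 0.0585). It passed in 5 of 17 other fits, among them DESeq2 (adjusted p = 0.0425) and the fit without endogenous replicate 1 (adjusted p = 1.79e-06).

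The RNA sensors were less even. *Dhx58*, which encodes LGP2, a helper of the RIG-I-like receptors, had 598, 788 and 624 counts in the MSC-derived libraries and 42, 122 and 154 in the endogenous libraries (log2 fold change 2.60, SE 0.42, adjusted p = 0.00115). *Eif2ak2*, the kinase PKR that stops translation when it binds double-stranded RNA, had 869, 954 and 900 counts against 604, 414 and 458 (log2 fold change 0.81, SE 0.17, adjusted p = 0.00439), and did not pass in limma on TPM (adjusted p = 0.159). *Ifih1*, the sensor MDA5, had 1199, 1232 and 1011 counts against 780, 242 and 200 (log2 fold change 1.41, SE 0.49, adjusted p = 0.0401). The endogenous spread of *Ifih1* was wide because replicate 1 was 3.6 times the mean of the other endogenous libraries, and its call was lost without any 1 of the other 5 libraries (adjusted p 0.0858 to 0.109) and in limma on TPM (0.0826). Without endogenous replicate 1 its log2 fold change was 2.26. *Zbp1*, a sensor of Z-form nucleic acids, had 205, 264 and 204 counts against 16, 106 and 94 (log2 fold change 1.57, SE 0.59, adjusted p = 0.0511). It just missed the threshold, although its groups did not overlap, and passed in 8 of 17 other fits, in DESeq2 (adjusted p = 0.0246) and without endogenous replicate 1 (9.36e-05) among them.

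Enzymes that act on nucleotides were all higher and did not overlap between the groups. Over all genes tested, 31.3% were called higher and 38.2% were higher without overlap. *Rsad2* encodes viperin, which turns CTP into a chain terminator, and *Cmpk2*, beside it on chromosome 12, a mitochondrial nucleotide kinase. *Rsad2* had 2090, 1852 and 1627 counts in the MSC-derived libraries and 906, 386 and 410 in the endogenous libraries (log2 fold change 1.63, SE 0.33, adjusted p = 0.00375). *Cmpk2* had 774, 761 and 762 counts against 200, 153 and 188 (log2 fold change 2.01, SE 0.15, adjusted p = 1.56e-05). Endogenous replicate 1 was highest for both, by 2.33 times the mean of the other endogenous libraries for *Rsad2* and 1.2 times for *Cmpk2*. *Samhd1*, which degrades deoxynucleotides, had 5722, 5752 and 5245 counts against 3172, 2386 and 2628 (log2 fold change 0.96, SE 0.12, adjusted p = 2.48e-04).

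The 2 genes of membrane restriction went apart. *Bst2*, which encodes tetherin and holds budding viruses at the cell surface, had 2075, 2012 and 1877 counts in the MSC-derived libraries and 354, 490 and 561 in the endogenous libraries (log2 fold change 2.02, SE 0.16, adjusted p = 2.14e-05). *Ifitm3*, which blocks fusion of viruses in endosomes, was the most abundant gene of the list and had 7568, 7028 and 6580 counts against 5026, 6878 and 6733. Its groups overlapped and it did not pass (log2 fold change 0.11, SE 0.12, adjusted p = 0.437). Its direction turned with the scaling, since limma on log2(TPM + 1) gave -0.31 (adjusted p = 0.0143). *Bst2* also marks plasmacytoid dendritic cells in mice. Of 5 further genes of those cells, 3 were higher, 1 was lower and 1 did not pass. The shares over all genes tested were 31.3% higher and 30.3% lower. *Siglech*, which was higher, had 227, 186 and 232 counts against 93, 30 and 47 (log2 fold change 1.85). *Pacsin1*, the lower gene, had 13, 35 and 25 counts against 154, 163 and 145 (log2 fold change -2.72).

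GTPases known best as targets of interferon gamma, which attack the vacuoles of intracellular microbes, had the lowest median of the role groups. Of 5 such genes, 2 were higher, 1 was lower and 2 did not pass. Over all genes tested, 31.3% were higher and 30.3% lower. The median log2 fold change was -0.04 for the 5 genes and 0.05 over all genes tested. *Igtp* had 873, 801 and 745 counts in the MSC-derived libraries and 302, 537 and 461 in the endogenous libraries (log2 fold change 0.82, SE 0.21, adjusted p = 0.0102). *Irgm1*, a regulator of the other family members, had 1206, 1136 and 1086 counts against 531, 812 and 761 (log2 fold change 0.63, SE 0.16, adjusted p = 0.0108). Both were higher without overlap, but did not pass in limma on TPM (adjusted p = 0.0623 and 0.143). *Iigp1* was the one gene of the list that was lower, with 823, 836 and 797 counts against 1962, 1051 and 1154 (log2 fold change -0.84, SE 0.24, adjusted p = 0.018). The groups of *Iigp1* did not overlap, with endogenous replicate 1 furthest from the MSC-derived libraries, and its call was lost when any MSC-derived library was left out (adjusted p 0.0573 to 0.0683). *Gbp2* had 689, 636 and 560 counts against 503, 684 and 656 and *Gbp3* 281, 257 and 264 counts against 501, 169 and 166, and neither passed (log2 fold change -0.04, SE 0.14, adjusted p = 0.812 and log2 fold change -0.14, SE 0.44, adjusted p = 0.798, in this order). For *Gbp3* the 3 MSC-derived libraries lay between endogenous replicate 1 and the other two, and without replicate 1 *Gbp3* passed as higher, at 0.56 on the log2 scale (adjusted p = 0.00356).

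The other 8 genes were higher in every MSC-derived library than in any endogenous library, and 7 of them passed. Of all genes tested, 38.2% were higher without overlap and 31.3% were called higher. *Trim30a*, a feedback regulator of inflammatory signalling, had 1263, 1169 and 1140 counts in the MSC-derived libraries and 116, 112 and 106 in the endogenous libraries (log2 fold change 3.34, SE 0.12, adjusted p = 4.73e-07), with endogenous libraries that were nearly equal. *Parp14*, an ADP-ribosyltransferase, had 757, 624 and 713 counts against 87, 114 and 108 (log2 fold change 2.69, SE 0.17, adjusted p = 7.20e-06). *Rtp4*, a restrictor of flaviviruses, had 1565, 1548 and 1412 counts against 315, 270 and 249 (log2 fold change 2.36, SE 0.13, adjusted p = 3.60e-06). These 3 genes had the largest differences of the 8. *Xaf1*, a gene of cell death, had 535, 406 and 434 counts against 96, 174 and 163 (log2 fold change 1.59, SE 0.25, adjusted p = 9.97e-04). *Ifi44* had 230, 143 and 208 counts against 50, 39 and 87 (log2 fold change 1.66, SE 0.36, adjusted p = 0.00555). *Slfn5*, of the Schlafen family, had 1187, 1182 and 1163 counts against 386, 410 and 510 (log2 fold change 1.37, SE 0.12, adjusted p = 4.93e-05), and *Ifi35* had 1041, 850 and 781 counts against 395, 430 and 410 (log2 fold change 1.03, SE 0.12, adjusted p = 2.38e-04). *Ifi27*, a mitochondrial protein gene, had 3441, 2893 and 2858 counts against 1861, 2539 and 2612 and did not pass (log2 fold change 0.32, SE 0.13, adjusted p = 0.0696). It passed with library totals alone (0.43, adjusted p = 0.0193), in limma on FPKM and without endogenous replicate 1 (0.13, adjusted p = 0.0484), and its direction turned in limma on TPM (-0.07). *Trim30a* has close copies, of which *Trim30b* and *Trim30d* were higher as well (log2 fold change 3.55, SE 0.49, adjusted p = 5.54e-04 and log2 fold change 5.38, SE 0.48, adjusted p = 4.73e-05).

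Levels were compared between genes in TPM, which divides by transcript length and sums to 1000000 in each library. *Ifitm3* came first in both groups, with 807 ± 19.9 TPM in the MSC-derived cells and 1002 ± 99.5 TPM in the endogenous cells (SD, n = 3), and *Ifi27* second, with 204 ± 13.5 TPM in the MSC-derived cells and 214 ± 19 TPM in the endogenous cells. In the MSC-derived cells *Bst2*, *Samhd1*, *Irf7*, *Rtp4* and *Isg15* followed, from 169 down to 76.1 TPM, and *Ifi44* was lowest at 3.91 ± 0.918 TPM. In the endogenous cells *Samhd1*, *Bst2*, *Isg15* and *Iigp1* followed, from 65.4 down to 37.5 TPM, and *Oas2* was lowest at 0.12 ± 0.0458 TPM. *Iigp1* thus held place 6 in the endogenous and place 17 in the MSC-derived cells, and *Trim30a* places 30 and 15. Neighbours in the order mostly could not be separated, since their libraries overlapped for 23 of 35 neighbouring pairs in the MSC-derived and 30 of 35 in the endogenous cells. TPM of the groups are not on the same scale as TMM-scaled counts: the median gene was lower by 0.40 on the log2 scale in limma on TPM than in edgeR. On that scale 24 genes of the list were higher and 3 lower, with *Ifitm3* and *Gbp2* added to *Iigp1*, and all genes split into 3124 higher and 5962 lower, where edgeR had 4468 and 4333.

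**Figure D3:**
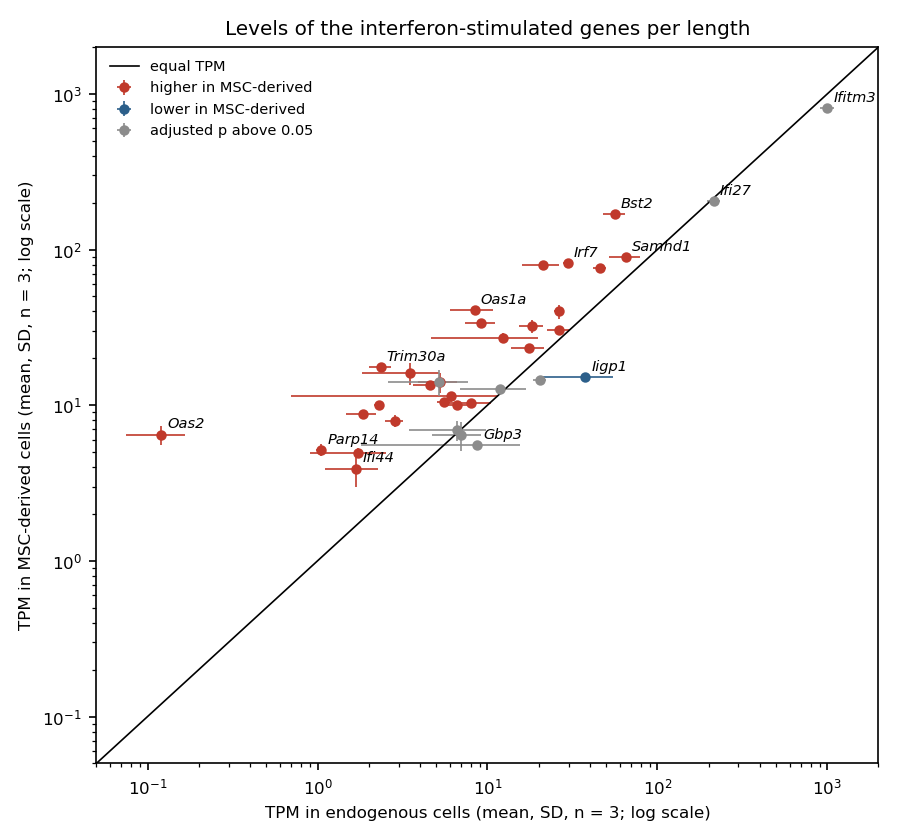
Mean TPM of the 36 genes in the endogenous cells (horizontal axis) and the MSC-derived cells (vertical axis), both on log scales, with bars of 1 SD over 3 libraries and the line of equal TPM. Most genes lie above the line, *Oas2* furthest, while *Ifitm3* and *Ifi27* lie close to it at the upper right and *Iigp1* and *Gbp3* are among those below it.

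The endogenous libraries varied more than the MSC-derived ones. The coefficient of variation of CPM was larger among the endogenous libraries for 33 of the 36 genes, with a median of 21.2% against 6.23%. The same share was not computed over all genes tested. The chi-square statistic per gene, which was not limited to the list, also set endogenous replicate 1 apart. Of all 14289 genes tested, endogenous replicate 1 was highest of the endogenous libraries for 6117 and lowest for 6762. Of the 36 genes it was highest for 14 and lowest for 19. It was over 1.5 times above the mean of replicates 2 and 3 for 6 genes (*Ifih1*, *Gbp3*, *Rsad2*, *Ifit1*, *Iigp1* and *Oasl2*) and below it by over 1.5 times for 8, with *Zbp1* at 0.164, *Dhx58* at 0.313 and *Herc6* at 0.326 of that mean. The share of genes off by over 1.5 times in either direction was 38.9% of the 36 genes and 38.5% of all genes tested. Without this library 33 genes of the list were higher and 1 was lower, and calls rose over all genes too, to 37.8% higher and 38.6% lower of 14728 genes tested.

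**Figure D4:**
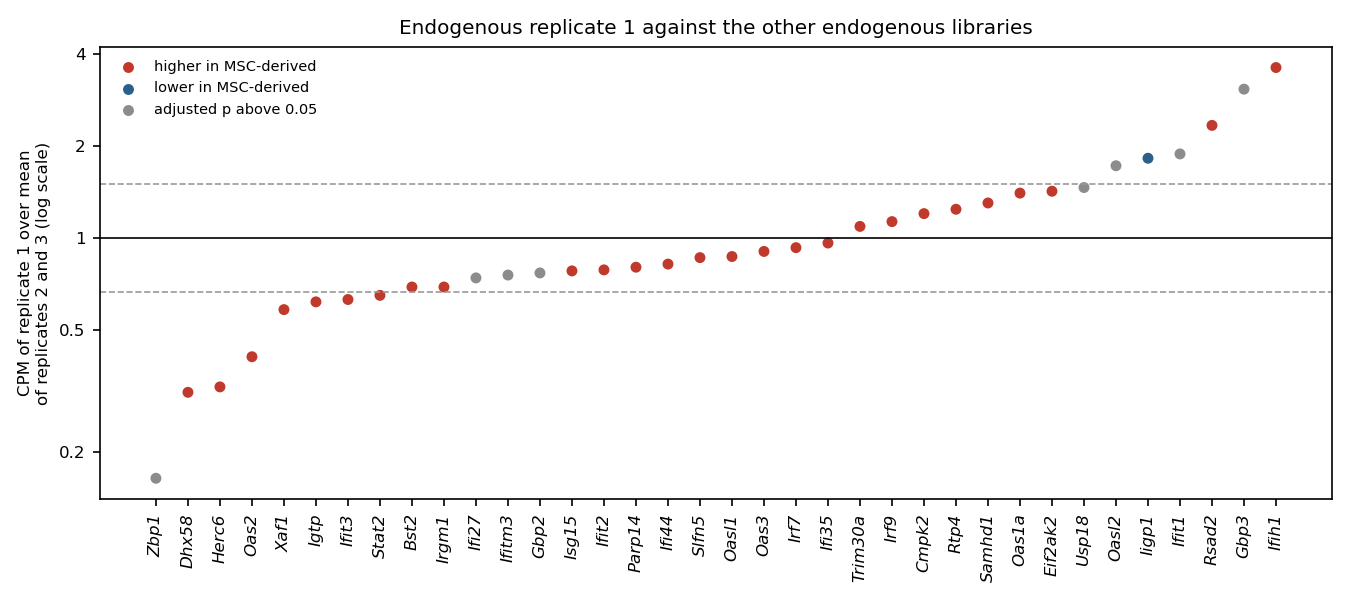
CPM of endogenous replicate 1 divided by the mean CPM of endogenous replicates 2 and 3 (vertical axis, log scale) for the 36 genes, sorted from low to high and coloured by call. The dashed lines mark 1.5 times above and below; *Zbp1* lies lowest at 0.164 and *Ifih1* highest at 3.6.

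The ligands were scarce. Of 21 interferon genes listed, 6 had a row, and only *Ifnb1*, which encodes interferon beta, passed the expression filter. *Ifnb1* had 20, 15 and 22 counts in the MSC-derived libraries and 0, 1 and 0 in the endogenous libraries, and was higher in edgeR (adjusted p = 0.00245). The endogenous libraries held 1 read of *Ifnb1* in all against 57, a ratio per depth of 58.7 with an exact 95% interval of 10.1 to 2361 that covers counting error only. The fitted log2 fold change of 5.32 rests on that read and was 7.23 without endogenous replicate 2. *Ifng*, which encodes interferon gamma, had 7, 5 and 12 counts against 0, 0 and 0, and *Ifnz* had 2, 3 and 12 counts against 8, 5 and 4, and neither was tested. *Ifna4*, *Ifnab* and *Ifnk* were at or below 2 counts in every library.

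All 6 receptor genes were higher in the MSC-derived cells and did not overlap between the groups. Among all genes tested, 31.3% were called higher, and 38.2% did not overlap and lay higher. *Ifnar1* and *Ifnar2*, the type I receptor, had 2248, 2193 and 2029 counts against 1197, 1310 and 1252 and 7162, 6695 and 6340 counts against 2768, 2322 and 2591, respectively. Both passed (*Ifnar1* with log2 fold change 0.71, SE 0.08, adjusted p = 1.92e-04, and *Ifnar2* with log2 fold change 1.32, SE 0.08, adjusted p = 6.76e-06), although *Ifnar1* did not in limma on TPM (adjusted p = 0.075). For the receptor of interferon gamma, *Ifngr1* had 8222, 7438 and 7038 counts against 1720, 2199 and 2504 (log2 fold change 1.75, SE 0.12, adjusted p = 1.29e-05), and *Ifngr2* had 3512, 3635 and 3281 counts against 2203, 1361 and 1339 (log2 fold change 1.01, SE 0.20, adjusted p = 0.00362). In limma on TPM *Ifngr2* did not pass (adjusted p = 0.063). Of the receptor of interferon lambda, *Il10rb*, which it shares with the interleukin 10 receptor, had 7192, 6993 and 6390 counts against 829, 776 and 842 (log2 fold change 3.0, SE 0.07, adjusted p = 9.13e-08). *Ifnlr1* had 87, 84 and 118 counts against 0, 18 and 12 (log2 fold change 3.19, SE 0.95, adjusted p = 0.0208), and its call was lost without any MSC-derived library and without endogenous replicate 3 (adjusted p 0.0573 to 0.0885). Its log2 fold change was 2.56 without endogenous replicate 1 and 3.90 without endogenous replicate 2.

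The kinases went in different directions. *Tyk2* had 857, 951 and 763 counts in the MSC-derived libraries and 134, 328 and 344 in the endogenous libraries (log2 fold change 1.60, SE 0.32, adjusted p = 0.00368) and was higher. *Jak2* had 1091, 1103 and 1008 counts against 1110, 1586 and 1571 (log2 fold change -0.49, SE 0.14, adjusted p = 0.0202) and was lower, but its call was lost without any 1 library except endogenous replicate 1 (adjusted p 0.0624 to 0.0781) and with library totals alone (0.0508). *Jak1* had 5334, 5167 and 4944 counts against 7376, 5033 and 5582, and did not pass (log2 fold change -0.29, SE 0.14, adjusted p = 0.112), although its groups did not overlap in CPM. It passed as lower in 4 of 17 other fits, with upper-quartile factors (adjusted p = 0.0351), in limma on TPM (0.0162) and without endogenous replicate 1 (0.00433) or 2 (0.029).

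Of 5 interferon regulatory factors, 4 were higher, beside 31.3% of all genes tested. *Irf8*, a factor of myeloid cells, had 9744, 8962 and 8581 counts in the MSC-derived libraries and 193, 388 and 446 in the endogenous libraries (log2 fold change 4.66, SE 0.28, adjusted p = 5.44e-06). *Irf5*, which acts downstream of Toll-like receptors, had 4688, 4387 and 4416 counts against 450, 177 and 219 (log2 fold change 3.92, SE 0.34, adjusted p = 4.10e-05). *Irf2* had 1378, 1405 and 1123 counts against 402, 497 and 472 (log2 fold change 1.43, SE 0.12, adjusted p = 4.01e-05). *Irf1*, an early target of interferon gamma, was lower without overlap, with 2976, 2768 and 2693 counts against 3667, 3929 and 4360 (log2 fold change -0.57, SE 0.08, adjusted p = 3.87e-04).

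Negative regulators were split, against a background of 31.3% higher and 30.3% lower among all genes tested. Of 9 genes, 5 were higher, 3 were lower and 1 did not pass. *Socs3* and *Socs1*, which block JAK kinases, were the largest decreases. *Socs3* had 4150, 3749 and 3830 counts in the MSC-derived libraries and 19356, 23234 and 24609 in the endogenous libraries (log2 fold change -2.59, SE 0.10, adjusted p = 4.72e-07). *Socs1* had 147, 205 and 170 counts against 670, 844 and 902 (log2 fold change -2.28, SE 0.19, adjusted p = 3.25e-05). *Ptpn2*, a phosphatase of JAKs and STATs, had 1032, 1058 and 1077 counts against 1677, 1250 and 1383 (log2 fold change -0.52, SE 0.13, adjusted p = 0.0123), and its call was lost without MSC-derived replicate 1 (0.0595) or 2 (0.0508). All 3 were lower without overlap between the groups. The largest increase was that of *Ptpn6*, the phosphatase SHP-1 of blood cells, with 8167, 7553 and 7748 counts against 219, 319 and 269 (log2 fold change 4.79, SE 0.15, adjusted p = 2.45e-07). *Adar* and *Trex1*, which edit double-stranded RNA and degrade DNA, respectively, were also higher, with log2 fold changes of 1.80 and 1.64 (SE 0.15 and 0.14).

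Of the sensors and adaptors upstream of interferon, 7 of 8 genes were higher and none was lower, and the groups did not overlap for any of the 8. The shares over all genes tested were 31.3% called higher and 38.2% higher without overlap. *Aim2*, a sensor of DNA in the cytosol, had 614, 577 and 514 counts in the MSC-derived libraries and 8, 20 and 19 in the endogenous libraries (log2 fold change 5.10, SE 0.31, adjusted p = 5.72e-06). *Trim25*, which activates RIG-I, had 3996, 3737 and 3315 counts against 913, 630 and 703 (log2 fold change 2.22, SE 0.15, adjusted p = 9.58e-06), and *Mavs*, the adaptor of RIG-I-like receptors on mitochondria, had 2036, 1896 and 1738 counts against 249, 487 and 516 (log2 fold change 2.11, SE 0.25, adjusted p = 2.18e-04). *Cgas*, which encodes the DNA sensor cGAS, did not pass, with 175, 186 and 121 counts against 2, 42 and 80 (log2 fold change 1.89, SE 0.87, adjusted p = 0.0968), although it did in limma and without endogenous replicate 1, where its log2 fold change was smaller, at 1.28 (adjusted p = 2.66e-04). Without endogenous replicate 3 it was 2.76 (adjusted p = 0.0539).

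**Figure D5:**
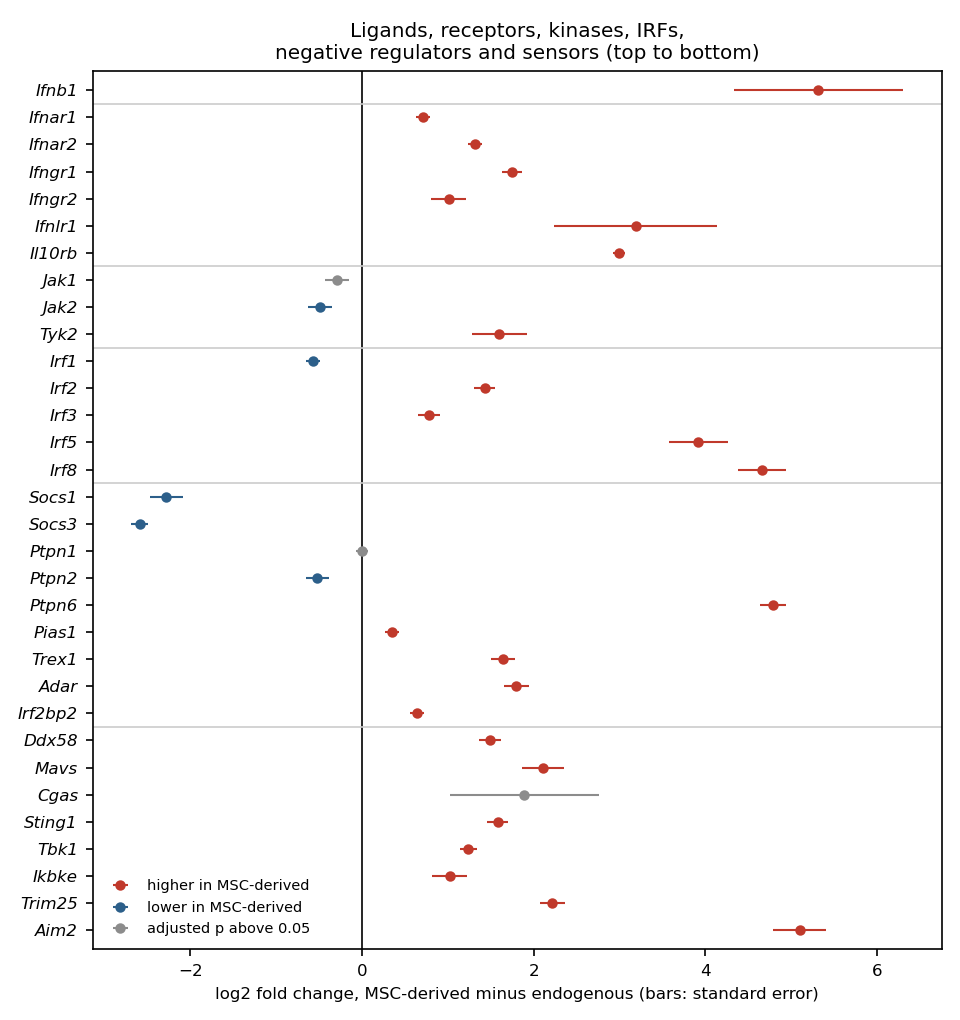
Log2 fold change, MSC-derived minus endogenous (horizontal axis), of the pathway genes reported, with bars of 1 standard error from edgeR; grey lines divide the lists named in the title. All 6 receptors lie to the right of 0, while *Socs1* and *Socs3* lie at -2.28 and -2.59 and *Irf1*, *Jak2* and *Ptpn2* closer to 0 on the same side.

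Of 90 further interferon-response genes, 83 had a row and 79 were tested. Of these, 66 (83.5%) were higher, 1 was lower and 12 did not pass, beside 31.3% higher and 30.3% lower over all genes tested. This list too was chosen with earlier results of these data known, so the shares are a description. The median log2 fold change of the 79 genes was 1.76. By the fitted log2 fold change *Trim30c*, *Gbp8* and *Ifi213* came first, but the value of *Trim30c* was fitted over a group at 0, and its bound does not place it above *Ifi213*. *Trim30c*, a copy of *Trim30a*, had 140, 111 and 124 counts in the MSC-derived libraries and 0, 0 and 0 in the endogenous libraries. Set against a floor of 3 counts in each library, its level was at least 41.9-fold higher. *Gbp8* had 2037, 2057 and 2005 counts against 0, 5 and 28 (log2 fold change 7.45, SE 0.62, adjusted p = 3.18e-05), which became 6.82 without endogenous replicate 1 and 9.51 without endogenous replicate 3, and *Ifi213*, of the family of DNA sensors around *Aim2*, had 417, 393 and 404 counts against 2, 10 and 7 (log2 fold change 5.90, SE 0.42, adjusted p = 1.31e-05). *Ifi205*, of the same family, was the gene that was lower, with 75, 60 and 76 counts against 275, 154 and 196 (log2 fold change -1.64, SE 0.30, adjusted p = 0.0023).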

How the data were processed

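Bulk RNA-seq was available for 6 libraries, 3 MSC-derived and 3 endogenous, grouped by their titles. Reads had been cleaned by the authors (SOAPnuke), mapped (HISAT2 to the genome, Bowtie2 to genes) and quantified by RSEM. The submitters' processing notes name Bowtie2 2.2.5, RSEM 1.2.12 and the build mm9, and the paper's methods give other versions. The authors deposited, without normalization, the expected count of each gene as RSEM estimated it. The authors also deposited FPKM (per transcript length and library size) and TPM (summing to 1000000 per library). A normalized signal per gene was deposited too and entered no result. Of the columns, 24 were mapped to samples, 8 of group averages were not used and 0 were left unmapped.

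Expected counts were rounded, which changed 20.6% of values, and analysed in R 4.3.3 by edgeR 4.0.16 (glmQLFit and glmQLFTest with TMM and filterByExpr) over 14289 genes with Benjamini-Hochberg adjustment and a threshold of 0.05. On simulated data the fit missed the first limit set for recovering changed genes and met a limit set afterwards for genes of at least 1 CPM. The standard error is the absolute log2 fold change divided by the square root of F. No p was adjusted over the list alone and no list was tested as a set. Alternatives were DESeq2 1.42.0, limma 3.58.1 on log2(FPKM + 1), log2(FPKM + 0.1) and log2(TPM + 1), other normalizations, filters and thresholds, a replicate block, and leaving out each library. The members and lists were chosen with earlier results of these data known. All members are named; from the context lists, all ligands with a row, receptors and kinases are named (1 gene of the pathway lists is not reported here), and otherwise up to 3 largest changes in each direction among called genes without overlap and with a mean of at least 10 counts. *Cgas*, close copies of members, *Col2a1*, *Prg4*, *Siglech* and *Pacsin1* were added after their values were seen. Promoters came from RefSeq's GRCm38.p6 annotation, which is not the build of the files, and were matched by symbol. Nothing says that libraries came from separate mice beyond the paper's 3 mice per group, and intervals from counting cover counting error only. Figures were drawn with matplotlib 3.10.9.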

Additional observations from a re-analysis of the deposited data

How the results depend on the processing

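Over 17 other fits, 23 of the 36 genes kept both their direction and their call, all 23 of them called higher. The number of genes higher was 27 and ran from 24 to 33 over these fits (26 to 33 when 1 library was left out), was 18 at an adjusted p of 0.001 and 23 with a log2 fold change of at least 1. The number lower was 1 and became 3 in limma on log2(TPM + 1) and 0 at an adjusted p of 0.001 or with a log2 fold change of at least 1, and ran from 0 to 1 without single libraries. Over all genes, the number higher ran from 3124 of 14289 in limma on TPM to 5563 of 14728 without endogenous replicate 1. In these 2 fits 5962 and 5686 were lower. With a log2 fold change of at least 1, 19.3% of all genes were higher and 21.9% lower. The shares over all genes at an adjusted p of 0.001 were not computed. The median log2 fold change of 1.49 was 1.34 and 1.73 in limma on FPKM with pseudocounts of 1 and 0.1, 0.96 in limma on TPM, 1.66 with the replicate block, and between 1.30 and 1.51 without single libraries. Of the further interferon-response genes, 66 higher became 41 and 1 lower became 0 at an adjusted p of 0.001, and leaving out libraries gave 57 to 72 higher and 1 to 3 lower (3 without endogenous replicate 1). Of the pathway genes, 5 lower became 3 at an adjusted p of 0.001 and 2 with a log2 fold change of at least 1, and 3 to 6 without single libraries.

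Directions turned, all for genes that did not pass in edgeR unless stated: in limma on TPM *Usp18* (-0.08), *Ifitm3* (-0.31), *Ifi27* (-0.07), *Ptpn1* (-0.42) and *Pias1* (-0.11, called higher in edgeR), and in limma on FPKM with pseudocounts of 1 and 0.1 *Gbp2* (0.08 and 0.09) and *Gbp3* (0.13 and 0.19). So did *Gbp2* with library totals (0.07), *Gbp3* with the replicate block (0.07) and *Ptpn1* with RLE (-0.03), upper-quartile (-0.09) and trimmed factors (-0.04) and in DESeq2 (-0.02). Without single libraries *Ifitm3* ran from -0.07 to 0.17, *Gbp2* from -0.21 to 0.02, *Gbp3* from -0.42 to 0.56 and *Ptpn1* from -0.03 to 0.02, where endogenous replicate 1 gave the lowest of *Ifitm3* and *Gbp2* and the highest of *Gbp3*. The median of all genes moved by 0.12 with library totals, by 0.13 and 0.14 in limma on FPKM and by -0.40 in limma on TPM. The cause was not tested. The replicate block gave 28 genes higher (*Zbp1* added, adjusted p = 0.0326) and 1 lower; same-numbered libraries of the groups are from different mice and their deviations correlated at 0.00221 to 0.0178, so the numbers do not pair them.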

Other observations

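Families among the further interferon-response genes, grouped by symbol after their values were seen, are given here as a description. The shares called over all genes tested were 31.3% higher and 30.3% lower. All 5 Schlafen genes tested, which act on T-cell quiescence and tRNA, were called higher in MSC-derived cells, at a median log2 fold change of 3.41. *Slfn2* had 5077, 4799 and 4550 counts against 401, 362 and 418 (log2 fold change 3.54, SE 0.08, adjusted p = 8.58e-08) and *Slfn4* had 3418, 3195 and 2744 counts against 264, 196 and 380 (log2 fold change 3.41, SE 0.21, adjusted p = 6.74e-06). Of 9 genes of the PYHIN family, which holds DNA sensors, 8 were called higher and 1 lower, *Ifi205*, with a median of 2.23. *Ifi207* had 2395, 2315 and 2085 counts against 112, 97 and 78 (log2 fold change 4.49, SE 0.16, adjusted p = 4.35e-07). The nuclear body genes *Sp100*, *Sp110* and *Sp140* were all higher, with a median of 3.07, and for *Sp110* the endogenous libraries ranged most widely, with 1607, 1492 and 1350 counts against 6, 241 and 165 (log2 fold change 3.36, SE 0.81, adjusted p = 0.00846).

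The guanylate-binding proteins were uneven, with 5 of 7 called higher and a median of 0.99. *Gbp8* and *Gbp9* were furthest apart between the groups, and *Gbp9* had 306, 264 and 249 counts against 1, 7 and 26 (log2 fold change 4.52, SE 0.75, adjusted p = 0.00138). *Gbp7*, in contrast, had 469, 530 and 539 counts against 370, 300 and 332 (log2 fold change 0.55, SE 0.16, adjusted p = 0.0181), and *Gbp4* and *Gbp5* did not pass (adjusted p = 0.361 and 0.083). Of 4 immunity-related GTPases outside the list of 36, *Ifi47* and *Irgm2* were higher and *Tgtp1* and *Tgtp2* did not pass, with a median of 0.87. *Tgtp1* and *Tgtp2* are near-identical copies, so their division of reads is uncertain. *Ifitm1* had 1879, 1770 and 1686 counts against 197, 111 and 111 (log2 fold change 3.59, SE 0.24, adjusted p = 1.05e-05) and *Ifitm2* had 15640, 14836 and 14185 counts against 6546, 10942 and 10240 (log2 fold change 0.62, SE 0.17, adjusted p = 0.0167), beside the overlapping groups of *Ifitm3*.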
